A study of Mus musculus with 4 samples.

Results

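The genes described here encode the enzymes and one receptor of the prostaglandin pathway, together with Pla2g7, whose secreted product breaks down platelet-activating factor. They were followed in primary skin fibroblasts from newborn mice with and without ADAM9, a membrane-anchored metalloprotease. The set was chosen from 9 gene symbols, and it was selected on earlier results of these arrays, in which Pla2g7 was among the genes that differed between the genotypes. Probe sets were taken where the platform annotation names exactly 1 of the 9 genes. This gave 14 probe sets for 8 genes, out of 34945 non-control probe sets that name 1 gene and 18193 genes in all. For Ptgs1, the constitutive cyclooxygenase, no probe set was assigned by this rule, and it was not analysed here.

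The knockout group carries the genotype adam9 -/- and the control group adam9 +/+, and each has 2 isolations of dermal fibroblasts from mice at postnatal day 1. Each isolation was measured on 1 array, after 48 h in culture with no treatment. The labels do not give the construction of the allele, the strain, the number of animals in an isolation or their sex. Nothing says whether isolations with the same number share a litter or a day. The p-values rest only on the spread between these samples, which the fit shares in part across genes. The number of arrays limits the precision, and an exact permutation test of 2 against 2 arrays cannot go below a two-sided p of 0.333.

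Prostaglandins are made from arachidonic acid, which the cytosolic phospholipase A2 encoded by Pla2g4a releases from membranes. The cyclooxygenases Ptgs1 and Ptgs2 convert it to prostaglandin H2, and terminal synthases turn this into prostaglandin E2 (Ptges), prostacyclin (Ptgis) or prostaglandin D2 (Ptgds). Prostaglandin E2 acts on receptors such as EP4, encoded by Ptger4, and is oxidised by Hpgd. In skin, fibroblasts are a source of prostaglandin E2 in inflammation and wound repair. Platelet-activating factor is an ether phospholipid that acts on leukocytes and platelets, and its acetyl group is removed by plasma platelet-activating factor acetylhydrolase, the product of Pla2g7, for which macrophages are a known source.

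Of these genes, Ptgs2 and Pla2g7 differed by at least 2-fold between the genotypes with no overlap of the arrays, and the sequences upstream of their start sites are shown for that reason. They are the 250 bases before each start site in RefSeq, build GRCm38.p6, both on the plus strand. The Ptgs2 sequence lies at chr1:150099781-150100030 and the Pla2g7 sequence at chr17:43568201-43568450. Capitals mark matches to the searched motifs.
Ptgs2: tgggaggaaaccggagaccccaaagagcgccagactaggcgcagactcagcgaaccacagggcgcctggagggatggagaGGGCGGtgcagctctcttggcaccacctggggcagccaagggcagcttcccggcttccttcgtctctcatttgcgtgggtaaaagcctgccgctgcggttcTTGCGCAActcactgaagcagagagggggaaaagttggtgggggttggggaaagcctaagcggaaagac
Pla2g7: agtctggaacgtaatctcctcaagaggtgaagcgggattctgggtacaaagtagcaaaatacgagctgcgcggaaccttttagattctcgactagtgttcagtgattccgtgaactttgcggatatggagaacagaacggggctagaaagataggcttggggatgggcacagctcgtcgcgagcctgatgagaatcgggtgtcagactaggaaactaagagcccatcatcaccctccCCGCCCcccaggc

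A set of 6 motifs was searched on both strands in windows of 300 bases, from 250 before to 50 after each of the 32851 start sites in the table. They were the TATA box TATAAA, the cAMP response element core TGACG, the E-box CACGTG, the C/EBP palindrome TTGCGCAA, the AP-1 site TGANTCA and the GC box GGGCGG. The palindrome that C/EBP factors bind stood in the Ptgs2 window at bases -69 to -62 and in 0.183% of all windows. The GC box stood at -170 to -165 of Ptgs2 and at -13 to -8 of Pla2g7, and in 35.7% of all windows. The cAMP response element core and the E-box of Ptgs2, which overlap each other, lie after the RefSeq start site used here. They are at bases 14 to 18 and 17 to 22, and stood in 20.8% and 7.15% of all windows. These positions depend on that start site, and no other was examined for Ptgs2. The Pla2g7 window held no match to the other 5 motifs, and a match is a description of letters, not of binding.

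Facts of the whole series that bear on the genotype comparison were as follows. The array medians of non-control probe sets lay between 4.83 and 4.87. Adam9 stood at 8.33 and 8.55 in the knockout isolations and at 11.58 and 11.70 in the wild type, a value 9.16-fold lower in the knockout, and the sources used here do not say whether its probe set lies inside the deleted part. Xist stood at 10.38 and 10.40 in the knockout and 4.29 and 4.32 in the wild type, and the Y-linked Eif2s3y at 2.75 and 2.67 against 9.19 and 9.31. Every difference between genotypes is therefore also one between arrays that differ in sex-linked expression, and these cannot be told apart. The 10 fibroblast markers had array medians of 12.02 to 12.54, against 3.53 to 3.96 for 8 keratinocyte markers and 3.61 to 3.85 for 7 endothelial markers.

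Genes were compared between the genotypes with limma, with 1 probe set per gene and 13271 genes above a filter on low values. All 8 genes with a probe set passed that filter. Of them 1, Pla2g7, passed at an adjusted p under 0.05, as did 0.0678% of all genes tested. The arrays of the genotypes did not overlap for 6 of the 8, where 45.0% of all genes tested did not overlap, with 3 genes lower (Pla2g4a, Ptgs2 and Pla2g7) and 3 higher (Ptges, Ptgds and Hpgd) in the knockout. With no overlap and a difference of at least 2-fold, 2 were lower, beside 1.73% of all genes, and 0 were higher, beside 2.68%. The median difference of the 8 genes was 0.21 log2 units (knockout minus wild type), and that of all genes was 0.0027. The members were chosen with this comparison known, so these counts are a description and nothing is read from them.

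**Figure D1:**
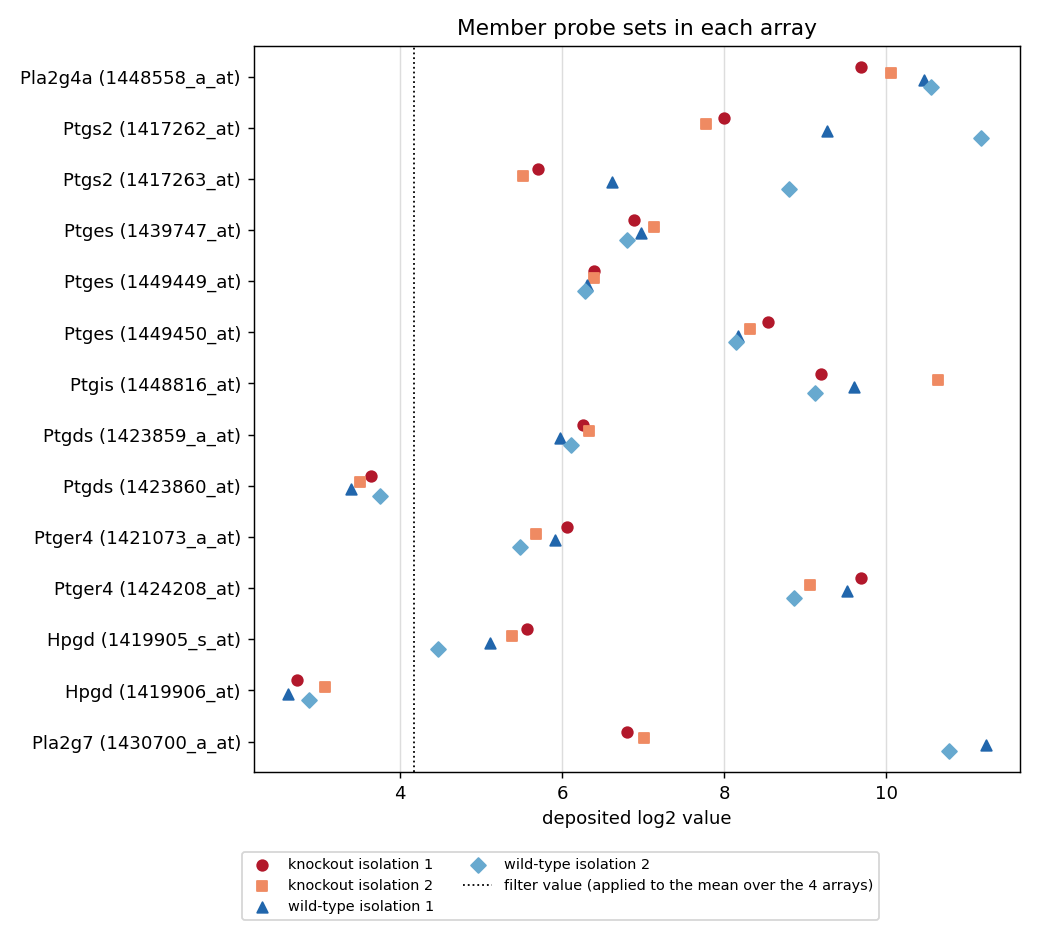
Deposited log2 value (horizontal axis) of each of the 14 probe sets in each of the 4 arrays, 1 point per array. The dotted line is the value of 4.17 that the mean over the arrays had to pass; both wild-type points of Pla2g7 and of Ptgs2 lie to the right of both knockout points, and those of Ptgis and Ptger4 are intermixed.

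Differences below are knockout minus wild type in log2 units, and their standard errors come from a limma fit over all 34945 probe sets. Levels are on the deposited log2 scale and are compared only within a probe set.

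Pla2g4a, at the head of the pathway, had lower values in the knockout. The gene has 1 probe set (1448558_a_at, Entrez 18783), which read 9.69 and 10.05 in knockout isolations 1 and 2 and 10.47 and 10.56 in wild-type isolations 1 and 2. The genotypes did not overlap, and knockout isolation 2 came closest to the wild type. The knockout mean was 9.87 ± 0.257 (SD, n = 2) against 10.51 ± 0.0610 (SD, n = 2) in the wild type, or 1.56-fold lower in the knockout (difference -0.64, SE 0.169). The gene did not pass the test over all genes. Pla2g4a and Ptgs2 are neighbours in RefSeq's gene order, with 0 protein-coding genes between them.

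Ptgs2, the inducible cyclooxygenase, had lower knockout values in each of its probe sets, and the wild-type isolations differed from each other. Probe set 1417262_at (Entrez 19225) read 7.99 and 7.77 in the knockout isolations and 9.27 and 11.17 in the wild-type isolations. Probe set 1417263_at read 5.70 and 5.52 in the knockout and 6.61 and 8.80 in the wild type. In both, the knockout arrays lay close together, wild-type isolation 1 stood above them and wild-type isolation 2 highest.

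By 1417262_at, the knockout mean of Ptgs2 was 7.88 ± 0.158 (SD, n = 2) and the wild-type mean 10.22 ± 1.35 (SD, n = 2), 5.05-fold lower in the knockout (difference -2.34, SE 0.639). By 1417263_at the difference was -2.10 (SE 0.728), or 4.27-fold. Ptgs2 did not pass the test over all genes. The size of its difference turned on wild-type isolation 2. Without that array it was -1.39, and without wild-type isolation 1 it was -3.29.

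The lists of fibroblast markers and of pericyte and smooth muscle markers also set wild-type isolation 2 apart. Of the 10 fibroblast markers 9 were lowest in that array, and their summed level, as linear values, was 54604 there against 76675 to 78310 elsewhere. The summed level of 9 pericyte and smooth muscle markers was 2008 and 1403 in the knockout isolations, 2653 in wild-type isolation 1 and 4944 in wild-type isolation 2, the same order of the genotypes and of the wild-type arrays as that of Ptgs2. The highest of these markers in each array was Actg2, to which a sum of linear values is weighted. The single markers were divided: 5 of the 9 were highest in wild-type isolation 2 and 2 were lowest there. Of 4 named after their values were seen, the smooth muscle actin Actg2 read 9.83 and 9.60 in the knockout and 10.50 and 11.67 in the wild type, and the smooth muscle myosin Myh11 read 6.55 and 5.48 against 8.71 and 9.57. The potassium channel subunits Abcc9 and Kcnj8 went the other way, at 7.49 and 6.48 against 5.49 and 3.45, and at 8.38 and 5.97 against 5.86 and 4.30. Fewer cells of a type and less RNA per cell cannot be told apart in such samples, and the part of these markers in the Ptgs2 difference was not tested.

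Among the terminal synthases, Ptges, the inducible prostaglandin E synthase, differed little between the genotypes. Probe set 1449450_at (Entrez 64292) read 8.54 and 8.31 in the knockout and 8.17 and 8.14 in the wild type (difference 0.27, SE 0.138). Probe set 1449449_at read 6.39 and 6.40 against 6.30 and 6.28 (difference 0.10, SE 0.116). Both put the knockout arrays just above the wild type, and without knockout isolation 1 the difference of 1449450_at was 0.16. In the remaining probe set, 1439747_at, the genotypes overlapped at 6.88 and 7.13 against 6.97 and 6.80 (difference 0.12, SE 0.153).

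Ptgis, the prostacyclin synthase, was set apart by 1 knockout array. Probe set 1448816_at (Entrez 19223) read 9.20 and 10.64 in the knockout and 9.60 and 9.13 in the wild type. Knockout isolation 2 was highest, and knockout isolation 1 lay between the wild-type arrays. The difference was 0.56 (SE 0.513), and its direction rested on knockout isolation 2: leaving that array out gave -0.17, while leaving out knockout isolation 1 gave 1.28.

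Ptgds, the lipocalin-type prostaglandin D synthase, had 1 probe set above the filter value and 1 below it. Probe set 1423859_a_at (Entrez 19215) read 6.25 and 6.33 in the knockout and 5.97 and 6.11 in the wild type (difference 0.25, SE 0.126). Those genotypes did not overlap, and the nearest arrays were knockout isolation 1 and wild-type isolation 2. Probe set 1423860_at read 3.64 and 3.51 against 3.40 and 3.75, with overlap and a difference of 0.00092 (SE 0.169).

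Ptger4, the EP4 receptor for prostaglandin E2, overlapped between the genotypes and stood higher in isolation 1 than in isolation 2 of each. That order of the isolations held for 28.3% of all genes tested. Probe set 1424208_at (Entrez 19219) read 9.68 and 9.05 in knockout isolations 1 and 2 and 9.52 and 8.86 in wild-type isolations 1 and 2. Probe set 1421073_a_at read 6.06 and 5.68, and 5.91 and 5.47. In both probe sets isolation 1 stood above isolation 2 in each genotype, by 0.63 and 0.65 in the first and by 0.38 and 0.44 in the second. The difference between genotypes was 0.18 in each (SE 0.320 and 0.223), and by the first it was -0.14 without knockout isolation 1 and 0.50 without wild-type isolation 1.

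Hpgd, the dehydrogenase that inactivates prostaglandins, had 1 probe set near the middle of all non-control probe sets and 1 low. By their means these stood at percentiles 53.4 and 13.5. Probe set 1419905_s_at (Entrez 15446) gave 5.56 and 5.38 in the knockout and 5.11 and 4.47 in the wild type, with no overlap and wild-type isolation 2 lowest (difference 0.68, SE 0.248; 1.60-fold higher in the knockout). Without wild-type isolation 2 the difference was 0.36. Probe set 1419906_at, below the filter value, gave 2.73 and 3.07 against 2.62 and 2.87, which overlapped (difference 0.15, SE 0.181).

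**Figure D2:**
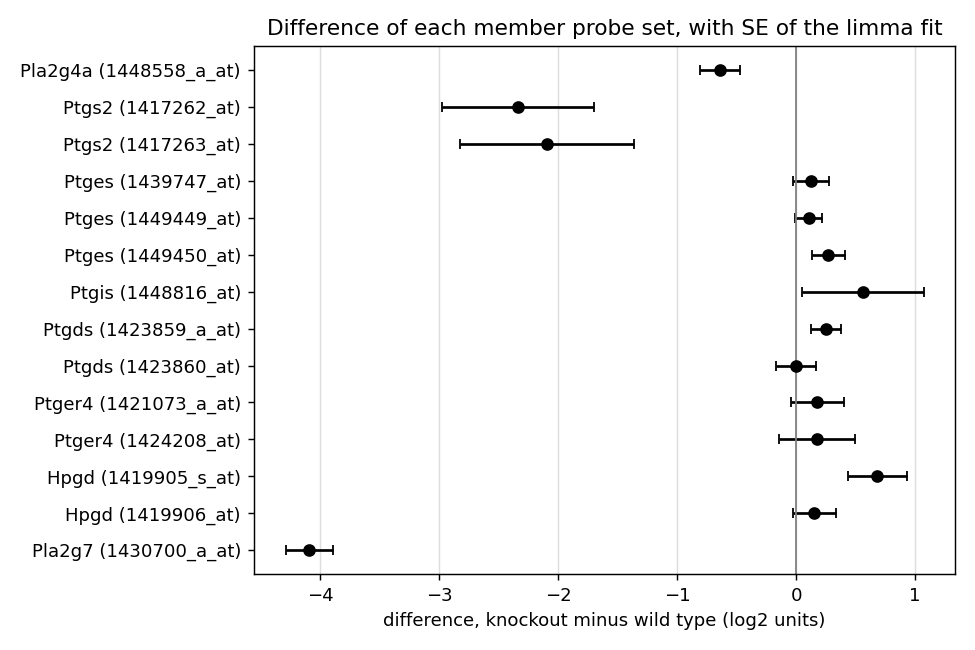
Difference of each of the 14 probe sets between the genotypes (horizontal axis, knockout minus wild type, log2 units), with bars of 1 SE of the limma fit over all probe sets. Pla2g7, at -4.09, and the Ptgs2 probe sets, at -2.34 and -2.10, lie apart from the other probe sets, which range from -0.64 to 0.68.

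Pla2g7 separated the genotypes more widely than any other member. Its 1 probe set (1430700_a_at, Entrez 27226) read 6.80 and 7.01 in the knockout and 11.23 and 10.78 in the wild type. The nearest arrays of the 2 genotypes, knockout isolation 2 and wild-type isolation 2, were far apart compared with the 0.21 and 0.45 log2 units that separated arrays of 1 genotype. The difference was -4.09 (SE 0.200), 17.1-fold lower in the knockout, with an adjusted p of 0.0275 in the limma fit across all genes. Without any 1 of the 4 arrays the difference was -4.32 to -3.87, and its adjusted p was then 0.124 to 0.244.

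Wild-type isolation 1 also held a strong macrophage signal, which Pla2g7 was set against. Of 29 macrophage and other leukocyte markers, 28 were highest in that array and 25 exceeded every other array there by over 1 log2 unit. Their summed level, as linear values, reached 14412 in wild-type isolation 1, where wild-type isolation 2 had 1055 and the knockout isolations 888 and 800. The lysozyme gene Lyz2 read 12.56 there and 6.78 to 7.59 elsewhere, the protease Ctss 10.07 and 3.88 to 4.58, and the CSF1 receptor Csf1r 9.58 and 6.47 to 7.37. None of the markers was at 0 in any array, since the lowest value on this log2 scale was 2.26.

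Pla2g7 was also highest in wild-type isolation 1, at 11.23 against 10.78 in wild-type isolation 2. From wild-type isolation 1 to wild-type isolation 2 the markers differed by a median of 3.24 log2 units and Pla2g7 by 0.45, less than 27 of the 29 markers. In wild-type isolation 2, where the markers stood a median of only 0.18 above the knockout mean, Pla2g7 stood 3.87 above it, or 14.6-fold. The markers ranged from -0.16 to 1.25 in that measure, so that all 29 were below Pla2g7. Without the array that held the macrophage signal, the Pla2g7 difference was -3.87. Its difference between the genotypes in these same arrays was known when the set was selected. The part of macrophages in the Pla2g7 difference was not tested.

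**Figure D3:**
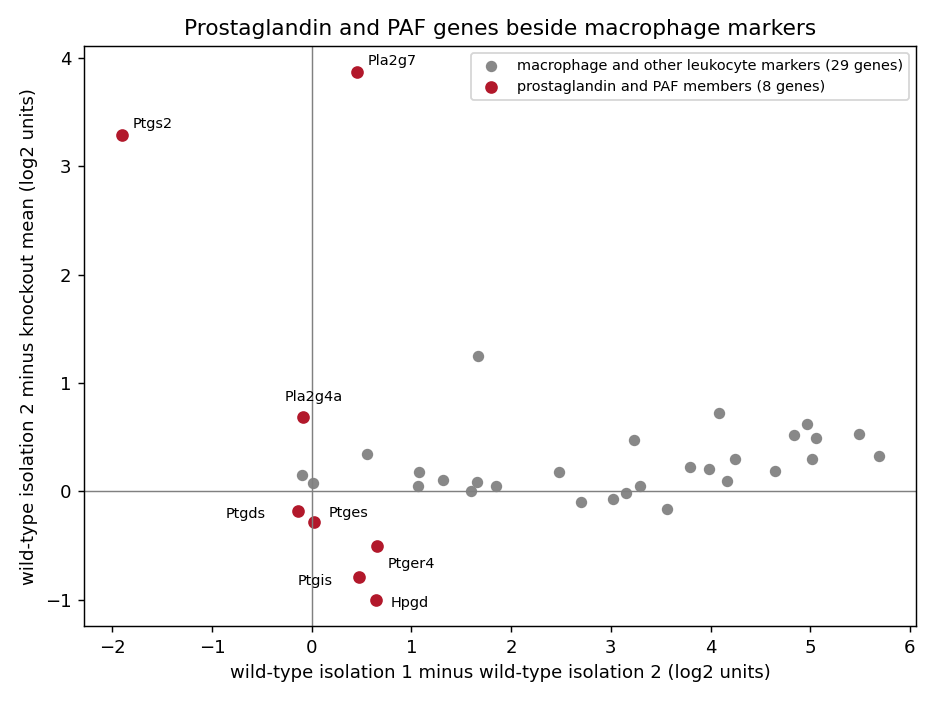
Each point is 1 gene, placed by its log2 difference between the wild-type isolations (horizontal axis) and between wild-type isolation 2 and the knockout mean (vertical axis). Grey markers of macrophages and other leukocytes spread along the horizontal axis, with a median of 3.24 and heights of -0.16 to 1.25, while Pla2g7 stands at 0.45 and 3.87 and Ptgs2 at -1.90 and 3.29.

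The 5 genes most like Pla2g7 over the 4 arrays, by Euclidean distance between log2 values centred on each gene's mean, were Zfp874a, Uty, Kdm5d, Adam9 and Ifi202b. Their distances were 0.667, 0.861, 0.944, 0.983 and 1.22 log2 units. As follows from their choice by likeness to Pla2g7, all 5 had their higher values in the wild type. Their differences ran from -3.20 for Adam9 to -5.28 for Ifi202b. Uty and Kdm5d are Y-linked. This is a description over 4 arrays.

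The other genes of the pathway came from a list of 68, of which 64 had a probe set and 45 were tested. By the limma test, 0 of the 45 passed in either direction (smallest adjusted p = 0.288), beside 0.0678% of all genes tested. An unadjusted limma p under 0.05 was found for 4 of the 45 and for 1516 of all 13271 genes. The arrays did not overlap for 6 genes with higher and 11 with lower knockout values. These were 37.8% of the 45, beside 45.0% of all genes tested. The median difference of the 45 was -0.021. Their standard errors, given below, are those of the fit across genes.

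The phospholipase A2 group had 9 other genes tested, the receptor Pla2r1 among them. The calcium-independent Pla2g6 read 7.73 and 7.31 in the knockout and 7.86 and 8.10 in the wild type. Its difference was -0.46 (SE 0.205), or -0.25 without knockout isolation 2. The secreted Pla2g10 differed by 0.13, or 0.065 without knockout isolation 1. Among 5 synthases and reductases, the prostaglandin E synthase Ptges2 differed by 0.16 and the thromboxane synthase Tbxas1 by -0.28, or -0.15 without wild-type isolation 1. Pla2g6 overlapped between the genotypes in its other 2 probe sets.

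Transport genes showed larger differences. The prostaglandin importer Slco2a1 read 7.57 and 7.63 in the knockout and 6.38 and 7.13 in the wild type by 1420913_at (difference 0.84, SE 0.281; 0.47 without wild-type isolation 1). Of its other 3 probe sets, 1450032_at differed by 0.51 with no overlap, and the genotypes overlapped in the remaining ones. The prostanoid exporter Abcc4 read 7.30 and 7.58 in the knockout and 7.81 and 9.14 in the wild type (difference -1.04, SE 0.474; -0.37 without wild-type isolation 2). Its highest array was thus wild-type isolation 2, as for Ptgs2. This was not particular to them, since it also held for Pla2g4a, Pla2g6 and Ephx2, among others. Neither gene passed the test over all genes.

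Among 11 genes of platelet-activating factor metabolism was the acetyltransferase Lpcat2, which makes the lipid. Lpcat2 read 5.47 and 5.16 in the knockout and 6.35 and 5.89 in the wild type. Its difference was -0.81 (SE 0.222), or -0.58 without wild-type isolation 1, its highest array. By its other probe set, 1440684_at, the genotypes overlapped at 3.44 and 3.51 against 4.23 and 3.42. The intracellular acetylhydrolase subunit Pafah1b2 read 9.69 and 9.98 against 9.42 and 9.42 by 1422792_at (difference 0.41, SE 0.155; 0.27 without knockout isolation 2), and 2 of its 4 probe sets showed overlap. Neither gene passed.

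In the group of lipoxygenases, leukotriene enzymes and receptors, 9 genes were tested. The soluble epoxide hydrolase Ephx2, which was listed with them, read 7.26 and 5.85 in the knockout and 7.69 and 7.92 in the wild type. Its difference was -1.25 (SE 0.496), or -0.54 without knockout isolation 2. Alox5ap, which presents arachidonic acid to 5-lipoxygenase, read 8.90 in wild-type isolation 1, above its range of 6.33 to 6.94 elsewhere. Hpgds, the prostaglandin D synthase of leukocytes, read 5.27 in wild-type isolation 1 and 3.44 to 3.79 elsewhere, and it was below the filter. Alox5ap and Hpgds were the 2 of 64 pathway genes that exceeded every other array by over 1 log2 unit in wild-type isolation 1, the array with the macrophage signal, whose part in them was not tested.

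The prostanoid receptors tested were higher in isolation 1 than in isolation 2 of the same genotype. By the probe set with the highest mean, this held in both genotypes for all 6 receptor genes tested besides Ptger4, and for 28.3% of all genes tested. The receptors outside the members, other than Ptgir, were named after their values were seen, as was this pattern. Ptger3, the EP3 receptor, read 8.59 and 3.86 in knockout isolations 1 and 2 and 6.61 and 3.79 in wild-type isolations 1 and 2 by 1450344_a_at. Its differences of 4.74 and 2.81 between isolations made it 1 of 3 genes with over 2 log2 units in both genotypes. Its other probe set, 1425251_at, stayed between 3.08 and 3.41 in all arrays.

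Ptgfr, the prostaglandin F receptor, read 8.07 and 6.35 in the knockout and 6.60 and 5.43 in the wild type by 1453924_a_at, and all 5 of its probe sets had isolation 1 above isolation 2 in both genotypes. The thromboxane receptor Tbxa2r read 9.78 and 8.70 in the knockout and 9.16 and 8.39 in the wild type. The genotypes overlapped in Tbxa2r and in this probe set of Ptgfr, as in another one, while the remaining 3 of Ptgfr were higher in both knockout arrays.

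Ptgir, the prostacyclin receptor, had the largest difference of the 45 tested pathway genes outside the members, among those whose genotypes did not overlap. It read 7.72 and 7.53 in the knockout and 6.59 and 5.73 in the wild type, and wild-type isolation 2 was lowest. The difference was 1.47 (SE 0.318; 1.04 to 1.89 without any 1 array), and its adjusted p of 0.288 in the limma fit did not pass.

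**Figure D4:**
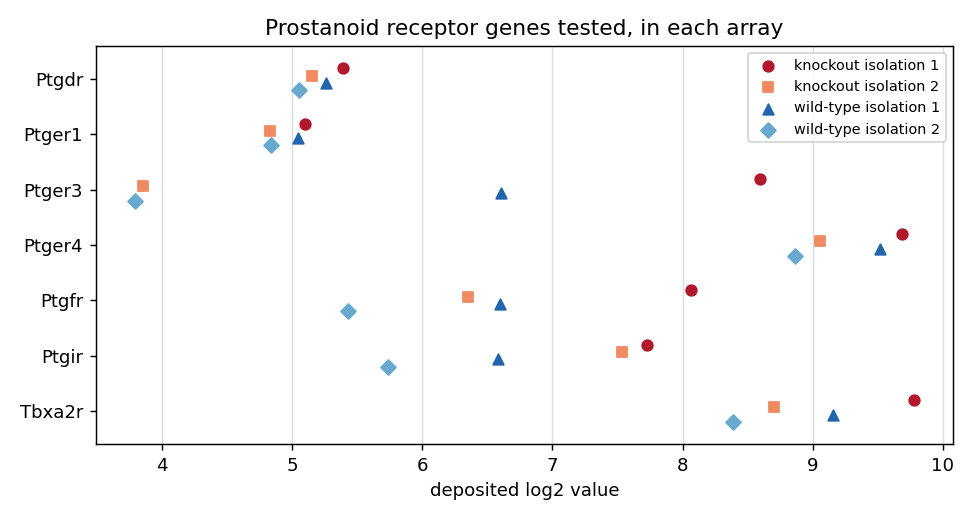
Deposited log2 values (horizontal axis) of Ptger4 and the 6 other prostanoid receptor genes tested, 1 point per array. Isolation 1 lies to the right of isolation 2 of its genotype in each gene, most widely for Ptger3 at 8.59 against 3.86 and 6.61 against 3.79, and both knockout points of Ptgir lie to the right of its wild-type points.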

How the data were processed

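Total RNA of 4 cultures was labelled with a kit for 3' expression arrays, per the labels' protocols. The deposited table holds a value for every probe set on each array, made by the authors with Affymetrix Expression Console per the submitters' processing notes. Its version, summary algorithm, background correction and log base are not stated in the labels. Because of their range, the deposited values were treated as log2. If the base is another, folds change and orders do not. No detection calls were used.

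Of 45101 probe sets, 64 were controls, 932 others named several genes and 9160 named none; these were left out. Symbols were updated by Entrez identifier through RefSeq (GRCm38.p6) for 34741 of 34945 probe sets. The probe set with the highest mean stood for a gene, and genes above the 40th percentile of non-control probe sets were tested. The genotype difference was fitted by lmFit and eBayes of limma 3.58.1 under R 4.3.3 (no block; 2 residual and 2.38 prior degrees of freedom), with Benjamini-Hochberg adjustment over all 13271 genes and a threshold of 0.05. A second fit over all 34945 probe sets gave the standard errors of the members. The procedure was tested on simulated data.

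The members, pathway list and marker lists were chosen with earlier results of these data known. Named pathway genes were, per role group, those with the largest positive and negative difference without overlap, and those high in wild-type isolation 1 alone. Alternatives tried were a block for isolation number, other filters, normalizations and probe set choices, an intensity trend, and leaving out each array. Sequences are from RefSeq. Promoters were found for 8 of the 9 members.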

Additional observations from a re-analysis of the deposited data

How the results depend on the processing

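The 9 genes called over the whole series became 2 with the isolation number as a replicate block, and 0 with any 1 array left out, where 714 to 2281 genes had an unadjusted limma p under 0.05. The other 8 settings called 6 to 10 genes. The isolation numbers are not stated to pair the arrays. With 2 pairs, the differences between isolations 1 and 2 correlated with r of 0.116 between the genotypes across genes, which are not independent replicates. Pla2g7 had an adjusted p of 0.143 in limma with the block and of 0.0227 to 0.037 in the other 8 settings that kept all arrays. For pathway genes the count was 0 in each of the 13 alternatives. Without 1 array, the difference changed sign for 2 members, from -0.17 to 1.28 for Ptgis and from -0.15 to 0.50 for Ptger4. It also did so for Alox5ap (-2.16 to 0.41), Ptger3 (-1.34 to 3.40) and Tbxa2r (-0.072 to 1.01) among the named pathway genes. Hpgd had no value under the stricter filter (60th percentile), with the mean over probe sets, or without _x_at and _s_at probe sets, since it was then below the filter. Low values have no stated background level, so folds against them depend on it.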
